A study of Mus musculus with 22 samples.

Results

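Tph1, Aanat, Crx, Sag, Rcvrn, Gngt1 and Pdc, 7 genes known from the pineal gland and from retinal photoreceptors, were followed in CD11b+ cells from whole brains of neonatal mice. They were chosen from lists of melatonin and phototransduction genes after earlier results of these data were known, and all 7 were found among the 56691 genes of the deposited files. The study bred CF-1 mice, an outbred stock. In the HIE groups, a model of hypoxic-ischemic encephalopathy, dams received LPS at 50 µg/kg on embryonic day 18 and pups breathed a falling oxygen level for 8 min on P6. Controls came from saline-treated dams and stayed in normoxia. A hypoxia group at P14 is named by its labels alone, which give no dam treatment. There were 4 animals each in HIE P7, control P7, HIE P14, control P14 and hypoxia P14, or 20 animals and 22 libraries, since 2 HIE P14 animals were sequenced 2 times. Each group came from 2 litters by the animal names, and litter mates are not independent of a shared dam. The labels date the 4 control P7 animals to P8, P9, P10 and P11, one each, whereas the study's methods place the early collection at P7, so age was not matched by the labels. The 4 HIE P7 animals were all male and the other groups had 2 of each sex. P7 and P14 came in separate files, so age and sequencing set cannot be told apart, and levels were compared only within a day.

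The pineal gland sits on the roof of the brain and makes melatonin from serotonin at night. Pinealocytes descend from the same kind of precursor as photoreceptors and share with them the homeobox regulator CRX and several proteins of the light response. Microglia, the cells the CD11b beads are meant to collect, are not known for making these proteins. Tph1 encodes the tryptophan hydroxylase that starts serotonin synthesis outside neurons and in the pineal, and Aanat encodes the enzyme that acetylates serotonin on the way to melatonin. Sag encodes S-antigen, the rod arrestin that ends the light response. Rcvrn encodes recoverin, a calcium sensor of photoreceptors. Gngt1 encodes the gamma subunit of rod transducin, and Pdc encodes phosducin, which binds the transducin beta and gamma subunits. In bulk samples such as these, fewer cells of a type and less RNA per cell cannot be told apart.

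On GRCm39, Tph1 (ENSMUSG00000040046.15) lies at chr7:46294065-46321965 on the minus strand and Crx (ENSMUSG00000041578.16) at chr7:15599872-15613893 on the minus strand. Aanat (ENSMUSG00000020804.13) lies at chr11:116477258-116488506 and Rcvrn (ENSMUSG00000020907.2) at chr11:67586141-67594159, both on the plus strand. Sag (ENSMUSG00000056055.14) lies at chr1:87731402-87772880, Pdc (ENSMUSG00000006007.15) at chr1:150195168-150209657 and Gngt1 (ENSMUSG00000029663.11) at chr6:3989048-3997436, all on the plus strand. Rcvrn lies wholly within Glp2r on the opposite strand (8019 bp shared), and Sag shares 693 bp with the opposite-strand lncRNA Gm19582. The library kit keeps strand, but the strand setting of the counting is not given in the sources used here, so the Rcvrn and Sag counts may hold reads of those neighbours. Glp2r itself had 5 to 43 counts per animal and Gm19582 had 7 to 179.

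The promoter windows of 2 pairs of members are shown, because Tph1 and Crx moved together across animals and Gngt1 and Pdc were highest in the same animal (values follow). Each window runs from 250 bases before the start of the canonical transcript to 50 bases after it, read 5′ to 3′ on the gene's strand from GRCm39, with matches to the CRX and OTX core motif TAATCC, or its reverse complement GGATTA, in capitals.
Tph1, chr7:46316755-46317054, minus strand: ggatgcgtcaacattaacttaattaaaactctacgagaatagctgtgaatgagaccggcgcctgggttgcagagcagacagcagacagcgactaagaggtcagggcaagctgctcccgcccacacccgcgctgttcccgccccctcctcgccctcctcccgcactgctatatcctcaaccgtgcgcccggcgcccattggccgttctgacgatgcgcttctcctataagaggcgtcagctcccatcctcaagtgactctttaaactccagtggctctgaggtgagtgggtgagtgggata
Crx, chr7:15613844-15614143, minus strand: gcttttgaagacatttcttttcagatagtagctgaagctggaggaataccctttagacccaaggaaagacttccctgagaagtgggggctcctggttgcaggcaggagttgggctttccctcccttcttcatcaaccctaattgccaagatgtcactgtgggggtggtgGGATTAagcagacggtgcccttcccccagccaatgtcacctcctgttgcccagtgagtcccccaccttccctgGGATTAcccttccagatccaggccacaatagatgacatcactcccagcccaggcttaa
Gngt1, chr6:3993542-3993841, plus strand: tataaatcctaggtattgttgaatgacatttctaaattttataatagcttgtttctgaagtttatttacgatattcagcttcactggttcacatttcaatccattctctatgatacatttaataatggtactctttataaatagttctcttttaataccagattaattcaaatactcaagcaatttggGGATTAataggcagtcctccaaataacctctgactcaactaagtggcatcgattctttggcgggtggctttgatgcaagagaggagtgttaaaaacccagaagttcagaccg
Pdc, chr1:150194918-150195217, plus strand: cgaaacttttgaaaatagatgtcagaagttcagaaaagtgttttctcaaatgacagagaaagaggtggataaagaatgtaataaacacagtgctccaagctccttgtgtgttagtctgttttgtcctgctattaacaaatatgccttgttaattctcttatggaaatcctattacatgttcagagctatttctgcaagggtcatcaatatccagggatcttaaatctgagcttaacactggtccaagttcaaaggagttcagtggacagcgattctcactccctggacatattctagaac
The motif was found in 5 of the 7 member windows, against 7.71% of 21757 windows of the same length at protein-coding genes. Crx, Aanat, Sag, Rcvrn and Gngt1 had it, and Tph1 and Pdc did not. Crx held it at -81 and -8 from its start, Aanat at -239 and -55, Sag at -87, Gngt1 at -62 and Rcvrn at -4. Among the other lists, it was found in 10 of 25 phototransduction windows, 6 of 18 retina windows and 1 of 15 pineal windows. The cyclic AMP response element TGACGTCA (2.45% of all windows) and the E-box CACGTG (7.82%) were found in 0 of the 7. These matches are letters in a window, not binding sites, and the members are known photoreceptor genes, so the count is not a finding about these animals.

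**Figure D1:**
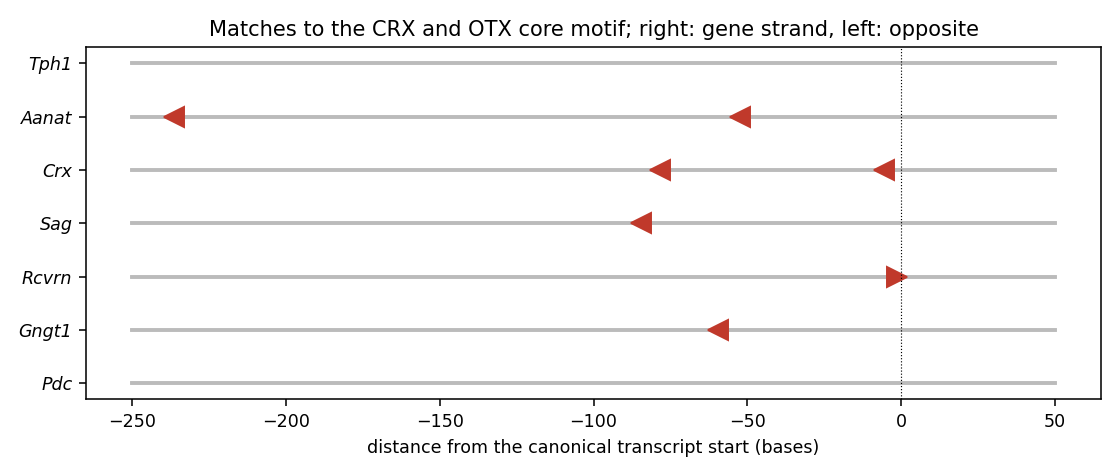
Matches to the CRX and OTX core motif in the promoter windows of the 7 members; the x axis is the distance from the canonical transcript start in bases, and each triangle is a match that points right on the gene's strand and left on the opposite strand. Crx and Aanat have 2 matches each, and Tph1 and Pdc have none.

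Library totals were 70191584 to 83469067 counts at P7 and 29751540 to 46404123 at P14. At these depths a floor of 3 counts corresponded to 0.0348 to 0.0439 CPM, the count relative to the TMM-scaled library total, at P7 and 0.0418 to 0.0944 at P14. Litter P6H63 of control P7 stood apart. The summed CPM of 10 microglia markers was 2204 and 1426 in its 2 animals, against 14228 to 19999 in the other 6 P7 animals and 17296 to 29684 at P14. P2ry12, a defining microglial receptor, was at 234.0 and 143.0 CPM in P6H63, against 1939 to 2751 in the other P7 animals. The P7 fold changes and correlations are therefore given with and without that litter. The ranks of likeness use all 8 P7 animals.

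The members fell into 3 patterns. Sag was measured well in every animal, Tph1 and Crx varied over a wide range with most of their counts in a few animals, and the other 4 were low. Of these 4, Aanat and Rcvrn were above the floor in every P7 animal, at 7 to 40 and 6 to 10 counts. Gngt1 and Pdc stayed at or near 0 almost everywhere. Per kilobase of canonical transcript, the control P7 mean level was 1.82 CPM per kb for Sag, 0.685 for Tph1, 0.446 for Crx, 0.184 for Aanat, 0.0978 for Rcvrn, 0.0594 for Pdc and 0.0207 for Gngt1. In HIE P7 the order was Sag at 1.42, Aanat at 0.151, Rcvrn at 0.103, Tph1 at 0.066 and Crx at 0.0302 CPM per kb, with Gngt1 and Pdc at 0 counts. In control P7 the SD of Tph1 (0.752 CPM per kb) and of Crx (0.494) exceeded the gap between their means. Within animals, Tph1 was above Crx in P6H63-7 (0.463 against 0.25 CPM per kb), P6H63-8 (1.8 against 1.17) and P6H55-7 (0.179 against 0.0592). In P6H55-12 it was not (0.299 against 0.304). In HIE P7 the gap between Aanat and Rcvrn was smaller than the SD of Aanat (0.0875) and larger than that of Rcvrn (0.0233).

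**Figure D2:**
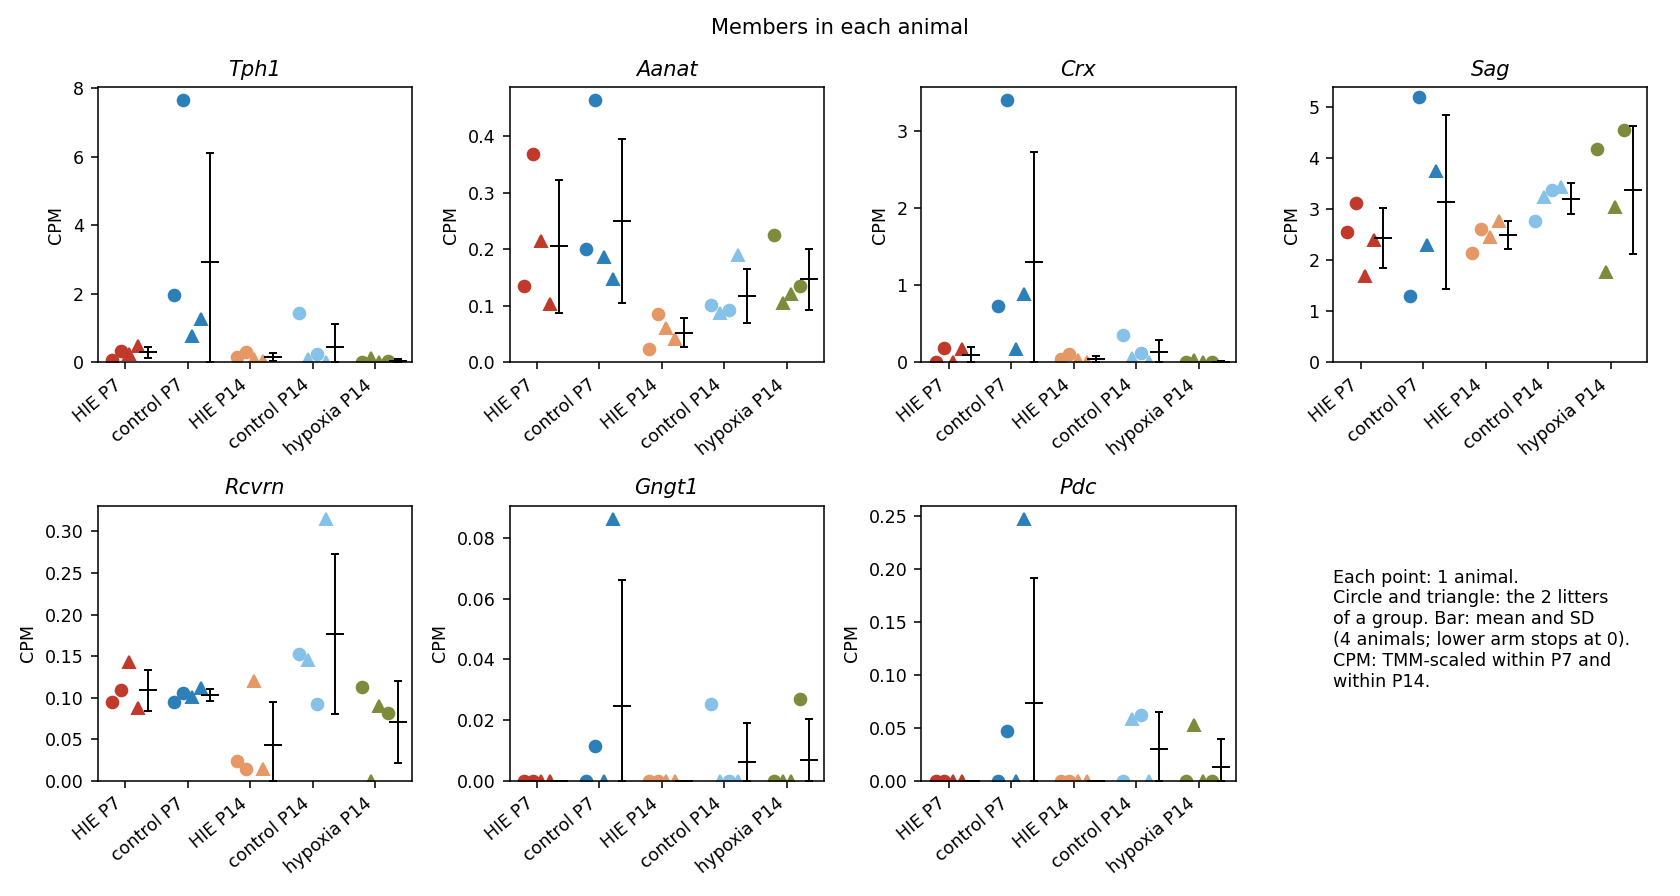
CPM of each member in each of the 20 animals by group, with circles and triangles for the 2 litters of a group and bars for the mean and SD of 4 animals. Tph1 and Crx peak in 1 control P7 animal (7.64 and 3.4 CPM), Sag lies between 1.3 and 5.19 CPM in all animals, and Gngt1 and Pdc peak in another control P7 animal.

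Of the 2 melatonin enzymes among the members, Tph1 had the higher mean level per kb in control P7. Its level there was 1.97 and 7.64 CPM in litter P6H63 (167 and 658 counts) and 0.763 and 1.27 CPM in litter P6H55 (53 and 103 counts). In HIE P7 it was 0.0676 and 0.328 CPM in litter N5 (5 and 24 counts) and 0.243 and 0.483 CPM in litter N8 (17 and 33 counts). Every HIE animal thus lay below every control. The mean was 0.28 ± 0.173 CPM in HIE P7 and 2.91 ± 3.19 in control P7 (SD, n = 4 each), and the control SD exceeded its mean because animal P6H63-8 held 62.1% of all P7 Tph1 counts. At P14 most animals had few Tph1 counts. HIE P14 had 7, 21, 3 and 2 counts (0.0279 to 0.297 CPM), control P14 had 56, 3, 8 and 0 (0 to 1.42 CPM), and hypoxia P14 had 0, 5, 0 and 1 (0 to 0.132 CPM). The 3 P14 groups overlapped, and the highest P14 value came from 1 control, P4H4-8M, with 52.8% of the counts of that day.

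The P14 animals also differed by the first part of their names, whose meaning is not given in the labels. The 4 animals named P4H (2 HIE, 2 control) had 0.162 to 1.42 CPM of Tph1, and the 8 named P6H (2 HIE, 2 control and all 4 hypoxia) had 0 to 0.132. Within P4H, the HIE values of 0.162 and 0.297 overlapped the control values of 0.248 and 1.42. Within P6H, all 3 groups had 5 counts or fewer.

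Aanat was low throughout. Its r with Tph1 was 0.50 over the 8 P7 animals, -0.04 over the 6 without litter P6H63 and -0.36 over the 12 P14 animals. It was 0.135, 0.368, 0.214 and 0.103 CPM in HIE P7 and 0.2, 0.465, 0.187 and 0.148 CPM in control P7, and the groups overlapped. At P14 it had 1 to 6 counts in HIE, 3 to 6 in control and 4 to 8 in hypoxia. The HIE P14 range of 0.0232 to 0.0848 CPM lay just under the control range of 0.0868 to 0.189, but the counts overlapped and 1 count of difference could close the gap. The main test did not cover it, since Aanat did not pass the filter on low counts at P14. Only the alternative fit with no filter held Aanat in the P14 comparisons. Asmt, the enzyme of the last step to melatonin, had 0 to 3 counts in every animal.

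Crx, the homeobox regulator, repeated the Tph1 pattern at a lower level. Control P7 animals had 0.731 and 3.4 CPM in litter P6H63 (62 and 293 counts) and 0.173 and 0.888 CPM in litter P6H55 (12 and 72 counts). HIE P7 animals had 0, 13, 0 and 12 counts, or 0 to 0.177 CPM, so that the highest HIE values met the lowest control. P6H63-8 held 63.1% of the P7 counts. At P14 the counts were 2, 7, 1 and 0 in HIE, 14, 2, 4 and 0 in control and 0, 1, 0 and 0 in hypoxia, with P4H4-8M again the highest. In the 8 animals with at least 7 Crx counts, Crx made up 18.5% to 41.1% of the Crx and Tph1 counts together. That share was 30.8% in P6H63-8 (exact 95% binomial interval 27.9 to 33.9) and 41.1% in P6H55-12 (33.8 to 48.8). Animals with fewer Crx counts are left out of this range, among them N8-3 with 17 Tph1 and 0 Crx counts. Across animals, log2 CPM of Tph1 and Crx had Pearson's r = 0.94 and Spearman's coefficient 0.87 over 8 P7 animals and r = 0.97 and Spearman's coefficient 0.91 over 12 P14 animals. Without the 2 animals farthest from the Tph1 median, r was 0.87 and 0.92, and over the 6 P7 animals without litter P6H63 it was 0.89. Both genes had lower means in HIE P7 than in control P7, so r at P7 also holds the gap between the groups. At P14, 5 of the 12 animals had 0 Crx counts and are tied. Each point shares its library and depth for both genes, so these values describe the animals and carry no test.

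**Figure D3:**
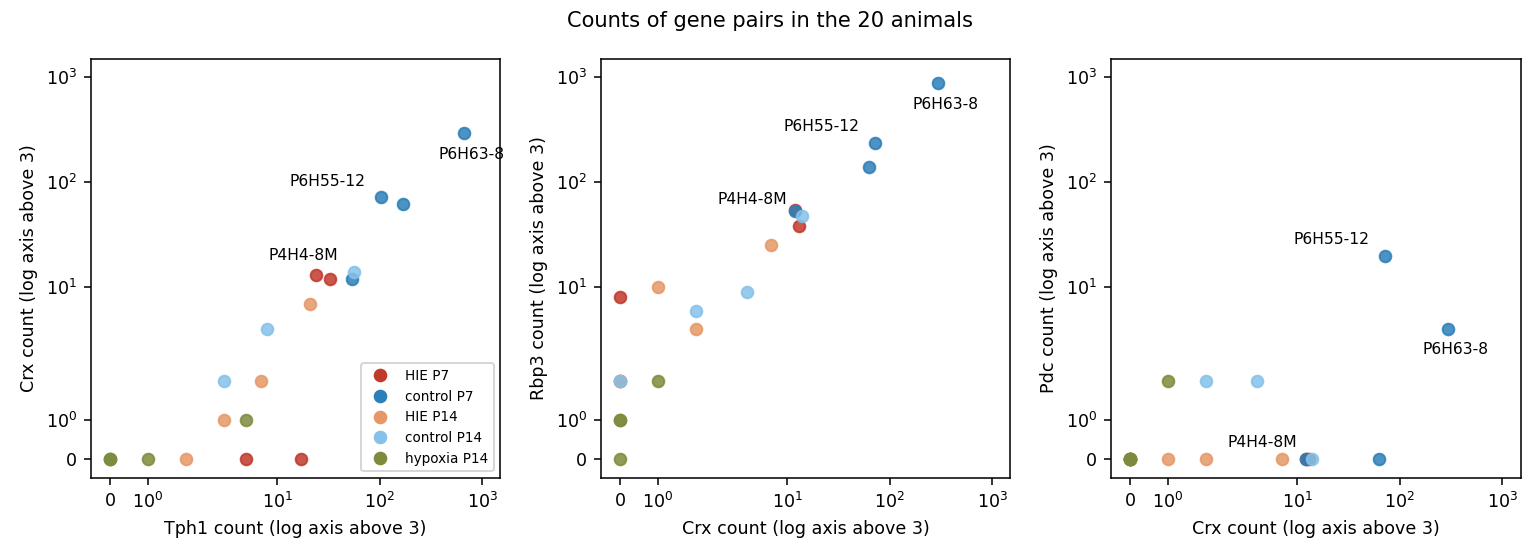
Counts of 3 gene pairs in the 20 animals, each point being 1 animal coloured by group, on axes that are linear up to 3 counts and logarithmic above. Crx rises with Tph1, and Rbp3 with Crx, though not in every animal with few counts, since N8-3 has 17 of Tph1 and 0 of Crx. P6H55-12 lies above P6H63-8 for Pdc (20 against 4 counts) with fewer Crx counts (72 against 293).

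Sag was the one member that passed the filter on low counts at both days. It was 2.54, 3.11, 1.68 and 2.40 CPM in HIE P7 and 1.3, 5.19, 2.29 and 3.75 CPM in control P7. The control range enclosed the HIE range. At P14 it was 2.13, 2.60, 2.46 and 2.77 CPM in HIE, 2.76, 3.24, 3.38 and 3.43 in control, and 4.17, 1.76, 3.04 and 4.54 in hypoxia. HIE and control met at 2.77 and 2.76 CPM, and hypoxia spread across both. Unlike the other members, Sag was at 67 counts or more in every animal and had no animal near 0. Its r with Tph1 was 0.37 over the 8 P7 animals, 0.41 over the 6 without litter P6H63 and -0.41 over the 12 P14 animals.

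The remaining phototransduction members were at or near the limit of detection. Rcvrn had 6 to 10 counts in every P7 animal, 0.109 ± 0.0245 CPM in HIE and 0.103 ± 0.00701 in control (SD, n = 4). In litter P6H63, with the most Tph1, it was at 0.0943 and 0.105 CPM. At P14 it had 1 to 4 counts in HIE, 3 to 10 in control and 0 to 4 in hypoxia. Gngt1 was at 0 in all 8 HIE animals of both days, which allows up to 3 counts per library. It had 7 counts in P6H55-12, 1 in P6H63-8 and 0 in the other control P7 animals, and no more than 1 at P14. Pdc was also at 0 in all 8 HIE animals. It had 20 counts in P6H55-12, 4 in P6H63-8, 0 in the other control P7 animals and 0 to 2 in the P14 controls and hypoxia animals. P6H55-12 thus held 83.3% of the P7 Pdc counts and 87.5% of the P7 Gngt1 counts.

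The control animals P6H63-8 and P6H55-12, looked at because they held the highest counts, had these genes in different proportions. The intervals given for them cover counting error only, not the spread between animals. Pdc was 21.7% (exact 95% interval 13.8 to 31.6) of the Pdc and Crx counts in P6H55-12 and 1.35% (0.368 to 3.41) in P6H63-8. Genes named here after their values were seen also differed. The rod regulators Nrl and Nr2e3 had 18 and 19 counts in P6H55-12, against 8 and 7 in P6H63-8. The rod channel subunit Cnga1 had 6 counts in P6H55-12 and 0 in the other P7 animals. Other phototransduction genes did not all go this way. Gnat1, Grk1, Pde6g and Pde6a had their highest control P7 counts, 30, 51, 188 and 104, in P6H63-8. Pde6b and Cngb1 had theirs, 22 and 95, in P6H55-12. Rbp3, the interphotoreceptor retinoid-binding protein made by photoreceptors and pinealocytes, kept closer to Crx. It had 140 and 874 counts in litter P6H63, 53 and 237 in P6H55, and 2, 38, 8 and 55 in HIE P7, and its ratio to Crx lay between 2.26 and 4.58 in the 8 animals with at least 7 Crx counts. Sag did not follow Pdc in this pair of animals, with 304 counts in P6H55-12 and 447 in P6H63-8.

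The P7 comparison asked how CD11b+ cells differed 1 day after the hypoxia. It was in view when the members were listed, so its values are a description. Of the 7 members, 4 passed the filter on low counts. Their log2 fold changes, HIE minus control, were -3.38 (SE 0.86) for Tph1, -3.86 (SE 1.23) for Crx, -0.36 (SE 0.41) for Sag and -0.29 (SE 0.52) for Aanat, with a median of -1.87 against -0.08 over all genes tested. Of these 4, 0 were called by edgeR at an adjusted p of 0.05, where 15 of 22517 genes (0.0666%) were called and 6144 had an unadjusted p under 0.05, 2 of the 4 among them. DESeq2 called 2 of the 4, Tph1 and Crx, both lower in HIE, where it called 13.4% of all genes and 9.1% as lower. Tph1 alone had every HIE animal below every control, as did 8.46% of the genes tested.

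Which control litter was used set the size of the difference. Without litter P6H63 the log2 fold changes were -1.85 (SE 0.58) for Tph1, -2.56 (SE 1.15) for Crx, -0.30 (SE 0.29) for Sag and 0.30 (SE 0.59) for Aanat, whose sign turned, and edgeR called 0 of the 4, with 0.112% of all genes called and 1 of the 4 at an unadjusted p under 0.05. DESeq2 without that litter, an alternative added after seeing the data, called 0 of the 4 as well, with 4.2% of all genes called; it gave no adjusted p for Crx and Aanat. Without litter P6H55 they were -4.07 (SE 0.67), -4.50 (SE 1.01), -0.38 (SE 0.49) and -0.66 (SE 0.58), and edgeR called Tph1 and Crx as lower in HIE, as it did 30.8% of all genes. Scaling by library size alone moved the median of all genes from -0.08 to -0.28 and gave -3.66 for Tph1 and -4.14 for Crx.

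**Figure D4:**
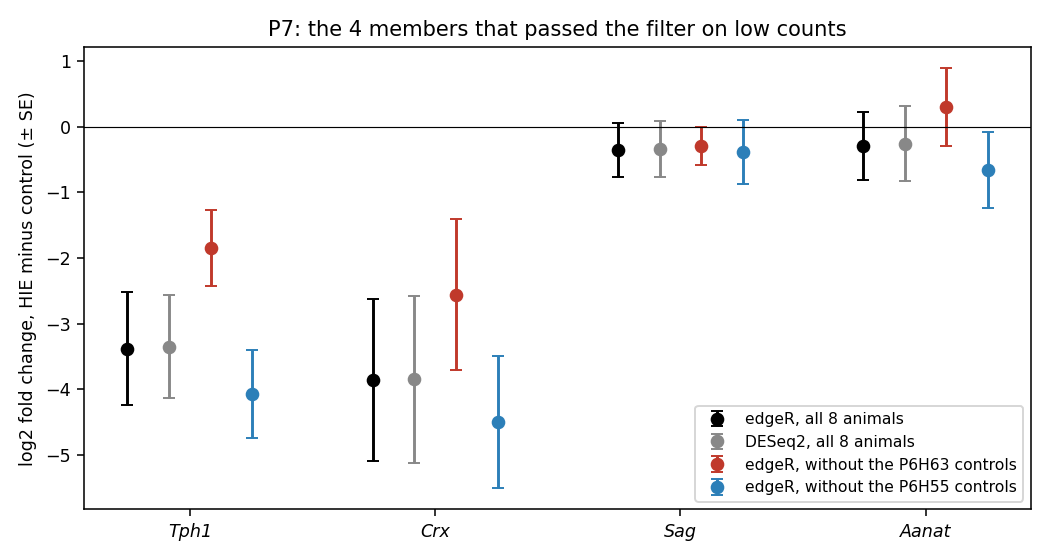
Log2 fold change at P7 (HIE minus control) with SE for the 4 members that passed the filter, fitted by edgeR or DESeq2 on all 8 animals and by edgeR without either control litter. Tph1 and Crx lie below 0 in each fit, Sag lies between -0.38 and -0.30, and Aanat changes sign without litter P6H63.

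At P14 only Sag passed the filter and entered the main fits. Its log2 fold change was -0.36 (SE 0.19, edgeR adjusted p = 0.596) for HIE against control, 0.08 (SE 0.28, adjusted p = 0.955) for hypoxia against control and -0.46 (SE 0.29, adjusted p = 1.0) for HIE against hypoxia. The edgeR test did not call it in any of the 3, where it called 0.00478%, 0.00954% and 0.00955% of all genes, and neither did DESeq2, with 2.36%, 0.807% and 0.0716%. The comparisons share their groups and are not independent. The difference of the HIE effect between the days was fitted for 4 members over the HIE and control animals, and edgeR called 0.

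Other genes of the same tissues were looked at beside the members, listed by known roles after earlier results of these data were known. They were 15 pineal and melatonin genes, 25 phototransduction genes and 18 photoreceptor outer segment and retina genes. Their P7 values are therefore a description. Of these 58 genes, 35 passed the filter at P7. The edgeR test called 0 of them, with 23 at an unadjusted p under 0.05, as were 6144 of all 22517 genes tested. DESeq2 called 12 as lower and 2 as higher in HIE, where it called 13.4% of all genes and 9.1% as lower. Their median log2 fold change was -1.12, against -0.08 over all genes tested. Without litter P6H63 it was -0.16, against -0.02 over all genes. There edgeR called 0 of the 35, with 0.112% of all genes called. DESeq2 called 2, Otx2 and Abca4, as lower, with 4.2% of all genes called in either direction. Without litter P6H55 the median was -1.79, against -0.02 over all genes. There edgeR called 33 of 45 as lower and 4 as higher, where it called 30.8% of all genes as lower and 27.7% as higher. In that fit the 2 P6H63 animals are the only controls, and a gene high in them alone can pass the filter. Lower calls for such genes are partly built in, so these counts carry no weight of their own. At P14, 27, 26 and 25 passed the filter for HIE against control, hypoxia against control and HIE against hypoxia. Both tools called 0 in each, and edgeR gave an unadjusted p under 0.05 for 2, 1 and 2 of them.

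The pineal list was led by genes that other brain cells also use. Adrb1, the beta-1 adrenergic receptor through which noradrenaline drives the pineal, was at 8.91 ± 1.69 CPM in HIE P7 and 6.84 ± 1.02 in control P7 (SD, n = 4). Otx2, the homeobox gene upstream of Crx and also a choroid plexus gene, was at 9.43 ± 1.73 in HIE P7 and 26.1 ± 14.6 in control P7, with an edgeR log2 fold change of -1.46 (SE 0.36), or -0.77 (SE 0.19) without litter P6H63. Rorb, a nuclear receptor of the retina, pineal and cortex, was at 11.2 ± 1.49 and 24.7 ± 12.3 CPM (-1.14, SE 0.34, or -0.42, SE 0.18, without litter P6H63). DESeq2 called Otx2 and Rorb as lower, together with the pineal homeobox gene Bsx (by DESeq2 -3.50, SE 1.27, or -1.80, SE 1.59, without litter P6H63), and edgeR called none of these. Bsx had 79 and 142 counts in litter P6H63, 6 and 31 in P6H55 and 0, 15, 0 and 4 in HIE P7.

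In the phototransduction list, Gnb1, a transducin beta subunit made in most cells, was at 354.0 ± 27.2 CPM in HIE P7 and 356.0 ± 21.7 in control P7. Gngt2, the cone transducin gamma subunit, was at 7.49 ± 1.20 and 4.55 ± 3.69, with its lowest counts, 152 and 99, in litter P6H63 and 442 to 713 in the other P7 animals. Gnb5 was at 7.06 ± 0.731 and 10.9 ± 3.28 (-0.63, SE 0.22, or -0.26, SE 0.14, without litter P6H63). The cone transducin subunit Gnb3 had 14, 18, 19 and 13 counts in HIE P7 and 78, 282, 27 and 60 in control P7, and 37 in P4H4-8M at P14 against 1 to 24 in the other P14 animals. The 7 genes that DESeq2 called were Gnb3, Rgs9, Pde6a, Cngb1 and Gucy2f as lower and Guca1a and Opn3 as higher in HIE. Guca1a, a guanylate cyclase activator of photoreceptors, was at 2.33 ± 0.835 CPM in HIE P7 and 0.732 ± 0.436 in control P7. Its group means thus ran opposite to those of Crx, but its ranges overlapped, with 1.1 CPM the lowest in HIE P7 and 1.24 the highest in control P7. DESeq2 called none of these 7 genes without litter P6H63.

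In the retina list, Abca4, the retinoid flippase of outer segments, was at 9.19 ± 2.39 CPM in HIE P7 and 31.8 ± 15.3 in control P7 (-1.79, SE 0.34, or -1.35, SE 0.23, without litter P6H63), and no HIE animal reached the lowest control. Rlbp1, a retinaldehyde-binding protein also made by glia, was at 6.57 ± 1.12 and 14.3 ± 8.18 (-1.12, SE 0.42, or -0.16, SE 0.23, without litter P6H63), and Rp1 at 2.97 ± 0.471 and 7.13 ± 4.71 (-1.27, SE 0.49, or -0.04, SE 0.21, without litter P6H63). The 4 genes that DESeq2 called in this list, all as lower in HIE, included Abca4, Rbp3 and Rom1. At P14, Abca4 was at 18.5 ± 7.12 CPM in HIE, 16.1 ± 6.80 in control and 12.5 ± 4.06 in hypoxia, and these ranges overlapped.

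Some markers of other brain tissues were also lower in HIE P7 than in control P7. The summed CPM of 10 choroid plexus markers was 1402 to 2530 in HIE P7 and 4048 to 10351 in control P7, highest in P6H63-8, and 9 of the 10 had every HIE animal below every control, against 8.46% of all genes tested. Leaving out a litter can only add to such counts. Of 10 meningeal fibroblast markers 6 did so, with sums of 721.0 to 1033 and 1107 to 3398 CPM. Neuron marker sums were 173.0 to 235.0 and 162.0 to 534.0 CPM, and 1 of 10 did so. The microglia markers went the other way, with sums of 17786 to 19999 in HIE P7 and 1426 to 15819 in control P7. The defining mast cell genes Cpa3, Mcpt4, Tpsb2 and Cma1, of interest because mast cells also make TPH1, had 18 counts or fewer in every animal, and Fcer1a had 2 or fewer. Kit, Hdc and Gata2, which other cells also express, carried the mast cell sum of 43.3 to 51.1 CPM in HIE P7 and 58.4 to 150.0 in control P7. Of the 6 mast cell markers that passed the filter, Kit and Gata2 had every HIE animal below every control, and DESeq2 called both as lower in HIE (-1.20, SE 0.36, and -1.16, SE 0.32). Without litter P6H63 it gave -0.45 (SE 0.18) for Kit, which it no longer called, and -0.56 (SE 0.18) for Gata2, which it did. The part of tissue content in the Tph1 and Crx difference was not tested.

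Over the pooled animals of a day, Tph1 rose with Ttr at P7 and less so at P14, a difference that was not tested. At P7 both genes had every HIE animal below every control, so r at P7 holds the gap between the groups. Within control P7, P6H63-7 had more Tph1 (1.97 CPM) than both P6H55 animals but less Ttr (3245 CPM, against 3699 and 4203). Tph1 and Ttr, the main choroid plexus transcript, had r = 0.94 and Spearman's coefficient 0.90 over the 8 P7 animals, or r = 0.83 without the 2 animals farthest from the Tph1 median and 0.91 over the 6 animals without litter P6H63. Over the 12 P14 animals r was 0.21 and Spearman's coefficient 0.22, or r = 0.29 without 2. Tph1 and P2ry12 had r = -0.83 and Spearman's coefficient -0.93 at P7, or r = -0.73 without 2 and -0.63 without litter P6H63, and r = 0.16 and Spearman's coefficient 0.23 at P14. P4H4-8M, with the highest Tph1 of P14, had a choroid plexus sum of 4404 CPM within the control P14 range of 1626 to 5162, a microglia sum of 21295 CPM within the range of 17773 to 23840, and a neuron sum of 495.0 CPM, the highest of the 12. The control P6H8-7M had a similar neuron sum, 490.0 CPM, with 0 Tph1 counts.

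**Figure D5:**
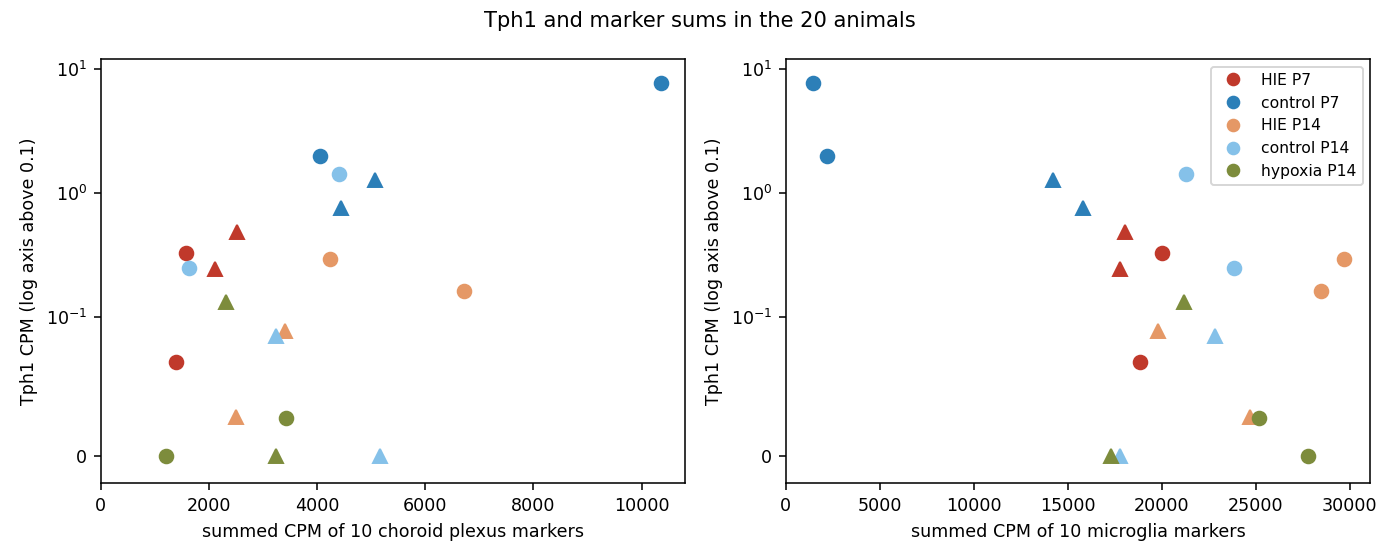
Tph1 CPM, on an axis that is linear up to 0.1 and logarithmic above, against the summed CPM of 10 choroid plexus markers and of 10 microglia markers, each point being 1 of 20 animals with circles and triangles for the 2 litters of a group. Litter P6H63 of control P7 (dark blue circles) lies at the lowest microglia sums, 2204 and 1426 CPM, and P6H63-8 at the highest choroid plexus sum, 10351 CPM.

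Likeness to the members was measured as Pearson's r of log2 CPM with the mean log2 CPM of the 7 members, at P7 and at P14 apart, over 20688 genes that passed the filter on both days. Ordered by the lower of the 2 values, the first 10 were Muc1, Agap2, Apc, Dnajc3, Ddn, Nefl, A930005H10Rik, Dlg4, Bcl11b and Cygb, with lower r from 0.81 for Muc1 to 0.72 for Cygb over 8 and 12 animals. Of the fixed lists, the neuron marker Nefl ranked 6, Gnb5 ranked 80 (r 0.79 and 0.65) and Rorb ranked 138 (0.76 and 0.62). Rbp3 and Gnb3 did not pass the filter at P14 and were not ranked. The mean gives each member the same weight, including those near 0, and all genes of an animal share its library, so these ranks are a description.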

How the data were processed

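CD11b+ cells were enriched with magnetic beads from dissociated whole brains, and ribosome-depleted stranded total RNA was sequenced. The authors mapped reads to GRCm39 with STAR and estimated counts per gene with RSEM, as the methods and the submitters' processing notes give it. The deposited values are expected counts, in 1 file per day (56691 genes, of which 56017 matched GENCODE M39). Expected counts were summed over libraries of the same animal and rounded to whole numbers. The 7 members and all gene lists were chosen with earlier results of these data known, so P7 values of the members and of these lists are a description.

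Genes passing filterByExpr were TMM-scaled within a comparison and tested with the edgeR 4.0.16 quasi-likelihood test in R 4.3.3 across all genes, with Benjamini-Hochberg adjustment and a threshold of 0.05. Each animal counted once. DESeq2 1.42.0 was an alternative, as were other scalings, no filter, leaving out each animal, either P7 control litter, 1 fit of all P14 animals, the first library alone and the name prefix as a block. DESeq2 without the P6H63 controls was added after seeing the data. CPM used TMM within a day, and log2 CPM a prior count of 2. Correlations were descriptive. Intervals are exact and cover counting error only. The scripts were tested on simulated data. Nothing states that animals of a litter were prepared apart, so p-values measure the spread between these samples. Genes named were the members, every gene of the other lists called by edgeR (there were none), and the 3 of each pineal, phototransduction and retina list with the highest mean CPM; others were named after their values were seen. Promoter windows were read from GRCm39 with GENCODE M39 canonical starts. A gene of the retina list that is counted in the list's totals is not reported here.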

Additional observations from a re-analysis of the deposited data

Results flagged for a closer look

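Of 31 combinations of a member and a group with any spread, 8 had 1 animal set apart from the other 3 by more than Dixon's 95% critical value for 4 samples. Chance gives such a gap in about 1 of 20 groups of normally distributed values. That rate does not hold for counts near 0, so 8 of 31 cannot be read against it. In control P7, animal P6H63-8 was high for Aanat at 0.465 CPM, and P6H55-12 was high for Gngt1 at 0.0863 CPM (7 counts against 0 or 1). P6H63-8 also had the most Tph1 of its day, and P6H55-12 the most Pdc. In control P14, P6H8-7M was high for Aanat at 0.189 CPM (6 counts). The other 5 rested on very few counts. Rcvrn was at 0.12 CPM in the HIE P14 animal P6H12-14F (4 counts against 1 in each other animal). Gngt1 was at 0.0253 CPM in the control P14 animal P4H4-8M and at 0.027 CPM in the hypoxia P14 animal P6H7-8F, 1 count each. In the hypoxia P14 animal P6H9-14M, Crx was at 0.0263 CPM (1 count) and Pdc at 0.0526 CPM (2 counts). Where 3 animals are at 0, any count sets the other apart. Tph1 and Crx in control P7 did not pass this limit, since their other animals also spread.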

How the results depend on the processing

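No paired analysis was possible because the replicate numbers only follow the order of the samples and pair no animals across groups. At P7, 15 genes were called in all and 0 members. DESeq2 called 3024 genes and 2 members, DESeq2 without the P6H63 controls, added after seeing the data, 978 genes and 0 members, edgeR 26 genes without the P6H63 controls, and 13905 genes with 2 members without the P6H55 controls. Leaving out 1 animal gave 10 to 5589 genes and 0 to 2 members. The upper values came without P6H55-7 alone, where 8, 9 and 7 genes of the pineal, phototransduction and retina lists were called too. The cause was not tested. The Aanat log2 fold change ranged from -0.73 to 0.2 over the animals left out, turning to 0.2 without P6H63-8 and to 0.3 without both P6H63 controls. Tph1 ranged from -3.76 to -2.25 and Crx from -4.46 to -2.75 over the animals left out, lower in HIE each time. At P14 the totals were small in every fit but DESeq2. For HIE against control, 1 gene was called, 494 by DESeq2, 2 by library size alone, 3 with no filter, 0 in 1 fit of all 12 animals, 2 with the name prefix as a block, and 0 to 6 without 1 animal. For hypoxia against control, 2 were called, 169 by DESeq2, 0 in 1 fit, and 1 to 7 without 1 animal. For HIE against hypoxia, 2 were called, 15 by DESeq2, 5 with no filter, 0 in 1 fit, and 1 to 3 without 1 animal. In hypoxia against control, Sag ranged from -0.1 to 0.29, turning to -0.04 without P6H7-16M and to -0.1 without P6H7-8F. At P14 0 members were called in each fit. Group mean CPM scaled by library size alone moved by more than 1 SD in 1 of 35 cases, Rcvrn in control P7, from 0.103 to 0.11. At P14 depth a member under 0.0418 to 0.0944 CPM lies below 3 counts.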
